A study of Mus musculus with 6 samples.

Results

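The regions described here are 801 stretches of open chromatin in mouse thymus that had a peak summit in exactly 3 of 6 ATAC-seq libraries and lay close to others of the same pattern. ATAC-seq uses a transposase that cuts accessible DNA, and the fragment ends are sequenced. Summits on chromosomes 1 to 19 were widened by 250 bp either way and merged wherever they met, across the 6 libraries, which gave 72291 regions. Of these, 4735 (6.55% of all regions) had a summit in exactly 3 libraries and are called three-library regions. A three-library region was a member when at least 2 other regions with the identical set of 3 libraries had their midpoints within 1 Mb, and 801 of the 4735 (16.9%) met this. Members of one set whose neighbours lay within 1 Mb of each other were joined into 255 segments. The members were chosen by the measured presence or absence of summits in each library, so their counts per set are given as a description, with no test.

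The mice were 4 weeks old, with a background of 50% BALB/C and 50% C57BL6, and their p53 alterations were in the germline. In the 3 AD/- libraries an AD allele of p53, called dimeric in the series, stood over a null allele (p53 AD/-), and the 3 null libraries came from p53 -/- mice, so no library carried a wild-type allele. Whole thymus was taken, and whether the 6 libraries came from 6 mice, or from pools, is not stated in the labels, so p-values measure only the spread between these libraries, which may be technical. The series compared open regions between dimeric and null thymus.

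p53 is a transcription factor that binds DNA as a tetramer and acts as a tumour suppressor, and mice without it are prone to thymic lymphoma. In a mixed background, the parental chromosomes of 2 strains can be inherited in long blocks, so mice that share a block share its sequence differences. In duplicated sequence, short reads can match several places, and a strain can carry more or fewer copies than the reference genome. The members were chosen to look at whether such blocks or copies show in the patterns of libraries. The labels give no genotype at any locus other than p53, so the strain of a segment in a library is unknown.

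The libraries differed in how much was detected. AD/- libraries 1, 2 and 3 held 53526, 58996 and 43589 autosomal summits, and null libraries 1, 2 and 3 held 53102, 54558 and 56836. Read depth is unknown because the lists give no read counts. Against the labelled tissue, 37 of 40 T cell development genes had a region of all 6 libraries within 1 kb of an annotated gene end, against 53.5% of all protein-coding genes. The same held for 2 of 8 B cell genes (Cd79b and Ebf1), 3 of 9 myeloid genes, 1 of 4 erythroid genes, 2 of 9 thymic epithelial genes and 2 of 7 genes of endothelium and mesenchyme. These lists name other cells that a whole thymus can hold, and in bulk tissue fewer cells of a type and less open chromatin per cell cannot be told apart.

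The promoters below show the sequence under 4 members and, last, a shared stretch in the largest AD/- segment. All are RefSeq windows of 300 bp on GRCm38, 250 bp before to 50 bp after an annotated start, written 5′ to 3′. In the first 4, capitals run from the lowest to the highest summit of the 3 libraries, with 10 bp on either side where the window allows.
Itih5 (chr2:10153293-10153592, + strand): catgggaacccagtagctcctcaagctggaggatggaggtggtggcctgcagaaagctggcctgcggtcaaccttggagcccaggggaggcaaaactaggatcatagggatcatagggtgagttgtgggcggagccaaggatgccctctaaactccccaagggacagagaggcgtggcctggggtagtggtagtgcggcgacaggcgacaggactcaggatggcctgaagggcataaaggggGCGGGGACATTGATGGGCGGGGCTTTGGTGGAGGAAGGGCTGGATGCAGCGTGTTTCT
Notch3 (chr17:32166841-32167140, - strand): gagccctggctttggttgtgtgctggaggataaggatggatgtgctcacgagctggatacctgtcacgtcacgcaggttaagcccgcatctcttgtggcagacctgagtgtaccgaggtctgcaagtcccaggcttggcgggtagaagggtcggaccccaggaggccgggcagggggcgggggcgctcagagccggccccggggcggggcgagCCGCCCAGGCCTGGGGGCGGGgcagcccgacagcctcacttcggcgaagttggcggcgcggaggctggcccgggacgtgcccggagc
Ankrd45 (chr1:161142447-161142746, + strand): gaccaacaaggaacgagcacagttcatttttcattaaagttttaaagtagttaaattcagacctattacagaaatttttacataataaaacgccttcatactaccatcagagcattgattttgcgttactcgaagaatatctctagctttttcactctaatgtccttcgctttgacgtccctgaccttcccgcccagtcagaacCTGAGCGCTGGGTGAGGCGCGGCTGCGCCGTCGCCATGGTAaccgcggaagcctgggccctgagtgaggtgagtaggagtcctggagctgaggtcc
Trim47 (chr11:116110186-116110485, - strand): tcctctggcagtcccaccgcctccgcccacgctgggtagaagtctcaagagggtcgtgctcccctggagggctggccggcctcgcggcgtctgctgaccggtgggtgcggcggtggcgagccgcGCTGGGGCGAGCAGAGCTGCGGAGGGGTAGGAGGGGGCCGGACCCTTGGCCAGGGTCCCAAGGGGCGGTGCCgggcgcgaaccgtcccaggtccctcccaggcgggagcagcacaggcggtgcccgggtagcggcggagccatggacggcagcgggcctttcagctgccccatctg

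The last pair come from the chromosome 4 segment of the AD/- set, and capitals mark their longest shared run, of 102 bases.
Rex2 (chr4:147021600-147021899, + strand): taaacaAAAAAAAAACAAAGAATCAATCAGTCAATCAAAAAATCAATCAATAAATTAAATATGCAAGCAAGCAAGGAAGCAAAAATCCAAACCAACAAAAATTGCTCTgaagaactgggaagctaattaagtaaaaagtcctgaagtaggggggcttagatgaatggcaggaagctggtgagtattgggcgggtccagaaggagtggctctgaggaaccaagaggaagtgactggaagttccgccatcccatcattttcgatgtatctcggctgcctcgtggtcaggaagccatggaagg
Zfp979 (chr4:147642459-147642758, - strand): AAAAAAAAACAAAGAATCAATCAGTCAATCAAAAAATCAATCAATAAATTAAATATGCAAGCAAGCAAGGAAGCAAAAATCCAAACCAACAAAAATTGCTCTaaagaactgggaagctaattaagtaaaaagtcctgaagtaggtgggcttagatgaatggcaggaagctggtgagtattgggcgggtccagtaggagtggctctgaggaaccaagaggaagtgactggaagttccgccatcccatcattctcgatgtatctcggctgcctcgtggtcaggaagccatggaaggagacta

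GC content was 60.7% in the Itih5 window, 70.0% in Notch3, 47.7% in Ankrd45 and 74.3% in Trim47, and 42.3% in both Rex2 and Zfp979, beside a median of 52.7% over all windows. Itih5 encodes an inter-alpha-trypsin inhibitor heavy chain, Notch3 a Notch receptor expressed in immature thymocytes, Ankrd45 an ankyrin repeat protein and Trim47 a ubiquitin ligase. Rex2 and Zfp979 belong to a tandem cluster of zinc finger genes.

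Members were spread unevenly over the sets of libraries. Of the 20 possible sets of 3 libraries, 18 mix the genotypes, and 772 of the 801 members (96.4%) had a mixed set, beside 90.9% of three-library regions. The set of AD/- 2, null 2 and null 3 gave 326 members, AD/- 1, AD/- 2 and null 3 gave 139, and AD/- 2, null 1 and null 3 gave 128. These 3 sets held 74.0% of the members and 40.7% of the three-library regions. AD/- library 2, which had the most summits, was in the set of 749 members (93.5%), beside 71.7% of three-library regions. AD/- library 3, which had the fewest, was in the set of 18, all of them in the AD/- set. The 9 mixed sets with AD/- library 3 had 56 to 127 regions each, 719 together, and no member. With the 43589 best-scoring summits of every library, so that the lists were of equal length, 89 regions in 36 segments were members, 3.24% of the three-library regions.

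**Figure D1:**
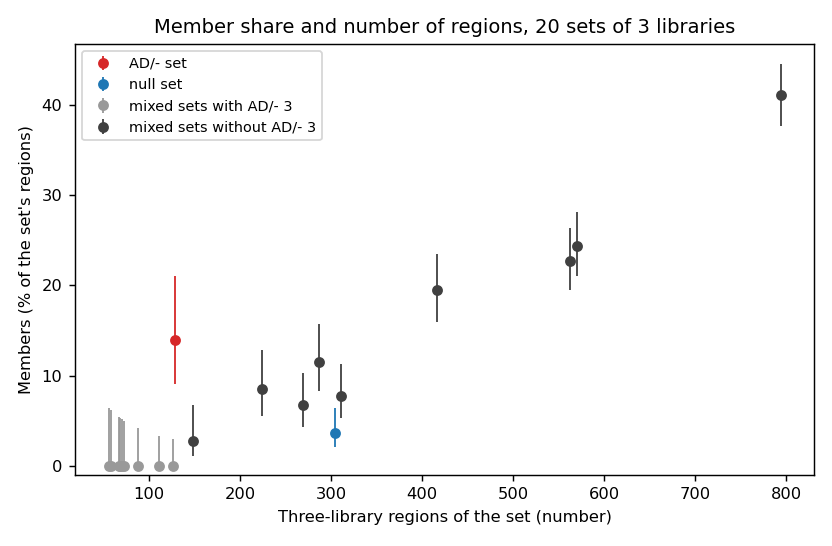
Number of three-library regions of each of the 20 sets (x axis) against the share of them that were members in percent (y axis), with 95% Wilson intervals that cover counting error only. The share climbs with the number of regions to 41.1% of the largest set, and the AD/- set, with 18 members among 129 regions, lies above sets of similar size.

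The number of regions of a set and its member share moved together, as a set with many regions has more neighbours by number alone. The largest set, with 794 regions, had a member share of 41.1%. Sets of 570, 563 and 417 regions had shares of 24.4%, 22.7% and 19.4%. A count that takes the size of the set into account is the share of three-library neighbours within 1 Mb that had the same set, over that set's share of all three-library regions. It was 1.09, 1.04 and 1.05 in the 3 largest sets, so the share of their own set among near neighbours was close to its share of all three-library regions (18.2% against 16.8% in the largest set). It reached 1.21 for AD/- 1, AD/- 2 and null 2 and 1.303 for AD/- 1, null 1 and null 3. It was 2.91 in the AD/- set and 0.68 in the null set with the lists as deposited, and with lists of equal length the order turned over, to 0.91 in the AD/- set and 1.201 in the null set. AD/- 1, AD/- 3 and null 1 had a ratio of 2.09, but only 58 regions and no member.

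**Figure D2:**
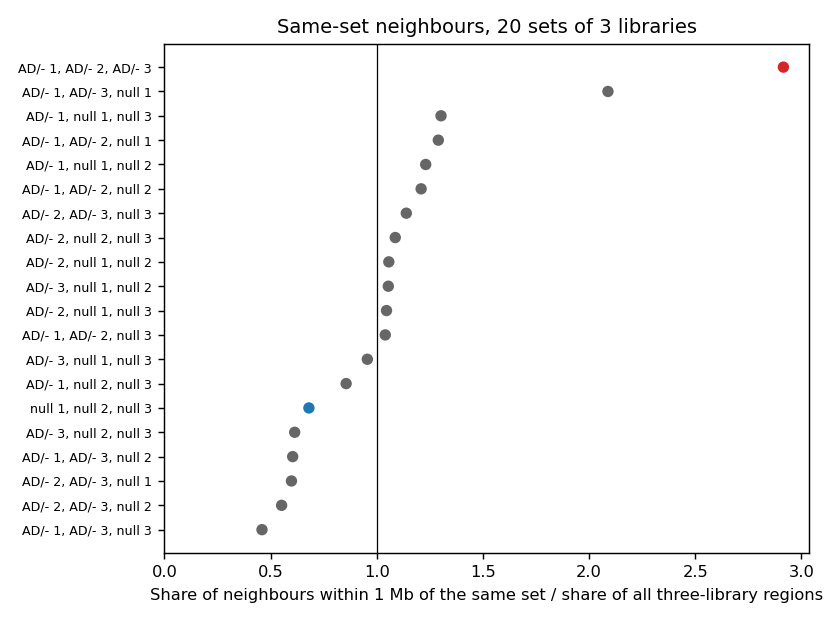
Share of the three-library neighbours within 1 Mb that had the identical set, divided by that set's share of all three-library regions (x axis, a ratio with 1 as a line), for each of the 20 sets. With the lists as deposited, as drawn, the AD/- set is farthest to the right at 2.91 and the null set lies at 0.68; with lists of equal length they were at 0.91 and 1.201.

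Identical sets were only slightly more frequent at short range. Of pairs of three-library regions within 1 Mb of each other, 9.51% had the identical set, beside 8.64% of pairs on different chromosomes. The share was 10.01% at 10 to 100 kb, 9.48% at 100 kb to 1 Mb, 9.10% at 1 to 2 Mb, 8.74% at 2 to 5 Mb and 8.71% at 5 to 10 Mb. The rule used only distances up to 1 Mb, so the decline from 9.10% at 1 to 2 Mb to 8.55% beyond 20 Mb lies outside it. Pairs share regions and are not independent, and no test was made.

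Very close pairs went the other way. Within 1 kb, 2 of 77 pairs (2.60%) had the identical set and 51 (66.2%) had complementary sets, in which the second region held the 3 libraries that the first lacked. Complementary pairs fell to 5.34% at 1 to 10 kb and 2.94% at 10 to 100 kb, beside 2.67% on different chromosomes. In a complementary pair within 1 kb, all 6 libraries had a summit near the place, at positions too far apart to merge. Of the members, 6 (0.75%) had a complementary region within 1 kb, beside 96 (2.44%) of the other three-library regions. A summit of a library outside the set lay within 2 kb of 258 members (32.2%) and of 34.4% of the other three-library regions.

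**Figure D3:**
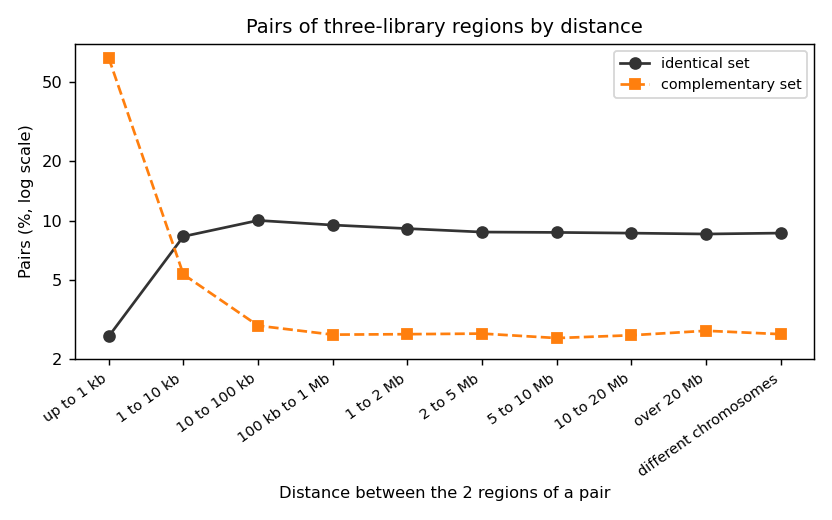
Percent of pairs of three-library regions (y axis, log scale) with the identical set of libraries (circles) or with complementary sets (squares), by distance class (x axis). Identical sets stay between 8.31% and 10.01% beyond 1 kb, and complementary sets drop from 66.2% below 1 kb to 2.94% at 10 to 100 kb.

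Most members sat in short groups. Of the members, 486 had exactly the 2 neighbours the rule asks for, 229 had 3 and 86 had 4 or more, with 6 the most. Of the 255 segments, 131 had 3 members, 76 had 4 or more and 32 had 5 or more. Another 39 had 1 member, a region between a pair that did not themselves have 2 neighbours, and 9 had 2. The median segment with 2 or more members spanned 0.741 Mb, the longest 2.61 Mb, and all segments covered 152 Mb. Segments of different sets overlapped in 84 cases (32.9%). Just inside the limit lay a region near Zmym2, whose second neighbour was 0.993 Mb away, and just outside lay regions near Ip6k1 at 1.002 Mb and Slco3a1 at 1.003 Mb. The member share of a chromosome ran from 9.51% on chromosome 7 to 26.3% on chromosome 16.

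Members were weak peaks. A percentile here ranks a summit's score among all summits of that library, 100 being the strongest, and the lowest of the 3 libraries is used for a region. Its median was 7.35 over members, 8.85 over other three-library regions and 55.0 over six-library regions. The median number of regions within 1 Mb was 136 for members, 98 for other three-library regions and 108 for six-library regions, a measure that the rule raises for members because it asks for neighbours. An annotated gene end lay within 1 kb of 61 members (7.62%, 95% Wilson interval 5.97 to 9.66), beside 8.44% of other three-library regions and 27.8% of six-library regions. A RefSeq promoter window overlapped 27 members (3.37%), beside 4.45% and 23.5%. All 3 shares count regions of chromosome 18, for which no windows were held, so they are somewhat low. Of the members, 606 lay within 50 kb of a properly named protein-coding gene, 536 genes in all.

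Regions of other patterns inside the segments, which the rule did not use, leaned little to the set of the segment. Of 1127 regions in 2 libraries, 390 (34.6%, interval 31.9 to 37.4) had both libraries in the set, beside 33.1% for the same sets elsewhere on the autosomes. Of 2180 regions in 1 library, 62.6% were in the set, beside 59.7%, and the interval of 60.5 to 64.6 lies above that. Of 895 regions in 4 libraries, 44.2% held the whole set, beside 43.1%, and of 1455 in 5 libraries 87.3%, beside 86.0%. Complementary sets made up 2.24% of the other three-library regions in segments, beside 1.85%. Intervals here cover counting error only, and regions of 1 segment are not independent.

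**Figure D4:**
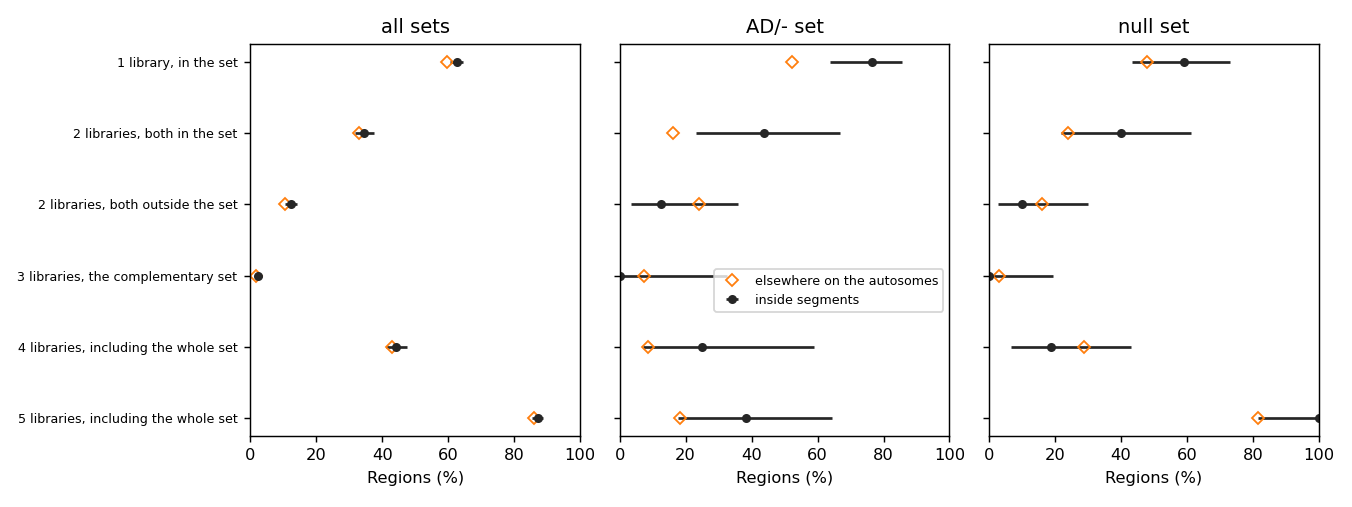
Share of the regions inside segments (filled points, 95% Wilson intervals) and elsewhere on the autosomes (open diamonds) whose libraries relate to the segment's set as named on the y axis (x axis in percent), for all sets, the AD/- set and the null set. Over all sets the points nearly coincide, and in the AD/- set 76.4% of single-library regions belonged to an AD/- library, beside 52.1% elsewhere.

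The AD/- set, with summits in all 3 AD/- libraries and in no null library, is the pattern the genotype comparison asks for. It made up 129 regions, 0.178% of all regions and 2.72% of three-library regions, and 18 of them were members. The null set made up 304 regions, 0.421% of all and 6.42% of three-library regions, with 11 members. Near regions of the AD/- set, 7.94% of three-library neighbours had that set, and near regions of the null set 4.37% had the null set. The ratio was 2.91 in the AD/- set with the lists as deposited and 0.91 with lists of equal length, against 0.68 and 1.201 in the null set. Members have same-set neighbours by the rule, so leaving them out must lower the ratio. Without the members of the 1, 2 and 5 largest segments it was 2.29, 1.59 and 0.98 in the AD/- set and 0.66, 0.63 and 0.54 in the null set. The lowest score of a member over its 3 libraries, a −log10 q-value, had a median of 4.25 in the 18 AD/- members and 4.59 in the 11 null members. A score of at least 5 in all 3 libraries was reached by 4 of the 18 and 4 of the 11. Among all regions of the AD/- set 60 (46.5%) reached it, and among all of the null set 190 (62.5%). It was reached by 51.8% of all members and 54.5% of three-library regions. With only summits of at least 5, no AD/- member was left and the null set had 21. With lists of equal length the AD/- set had 4 members, with an extension of 100 bp 6 and with a distance of 500 kb 11. With at least 3 other regions the null set had 0. Under the same rule over 5 libraries, the AD/- set had 23, 34 and 45 members without null library 1, 2 and 3, with ratios of 1.63, 1.56 and 1.75, and the null set had 109, 680 and 31 without AD/- library 1, 2 and 3.

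The largest AD/- segment lay on chromosome 4 from 146455098 to 148060806 (GRCm38) with 6 members. Of these, 2 lay inside Zfp992, 1 inside Zfp978 and 2 within 50 kb of Zfp982. The Zfp genes encode zinc finger proteins that typically bind DNA. In the first Zfp992 member the percentiles were 7.33, 6.33 and 27.0 in AD/- libraries 1, 2 and 3, and in the second 8.97, 3.51 and 25.2. The Zfp978 member had 7.33, 0.428 and 24.1, and the first near Zfp982 had 6.55, 20.4 and 24.5. Over the 6 members, the percentile of AD/- library 3 was the highest of the 3 libraries in 5 and the lowest in 1. The percentiles come from lists of different length, and by the score itself AD/- library 3 was highest in 3 of the 6. The nearest null summit lay 710234 and 712894 bp from the Zfp992 members.

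The other regions of this segment leaned the same way. Besides the members, AD/- libraries 1, 2 and 3 had 16, 22 and 29 regions and null libraries 1, 2 and 3 had 14, 13 and 13, so all 3 AD/- libraries lay above all 3 null libraries. AD/- library 3 was highest here although it had the fewest summits of all. Of the non-member regions, 24 had AD/- libraries only and 0 had null libraries only. Over all regions outside the AD/- members, 10.04% had AD/- libraries only and 10.28% had null libraries only. The 24 include 7 regions private to AD/- library 2 and 14 private to AD/- library 3, so they are not shared by the genotype.

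Most of the excess lay between the first and the fifth member, although zinc finger genes lay in the rest of the segment too. Between the first and the fifth member, over 1.06 Mb, the AD/- libraries had 2, 7 and 13 other regions and the null libraries 1, 1 and 1, with 17 regions in AD/- libraries only. In the remaining 0.541 Mb, 7 of 20 other regions had AD/- libraries only and 0 had null libraries only. The numbers per library there were 14, 15 and 16 against 13, 12 and 12. In the 1 Mb after the segment they were 41, 44 and 34 against 40, 39 and 39, and in the 1 Mb before it, which was nearly empty, 2, 2 and 1 against 1, 3 and 2. This division of the segment was made after its values were seen.

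**Figure D5:**
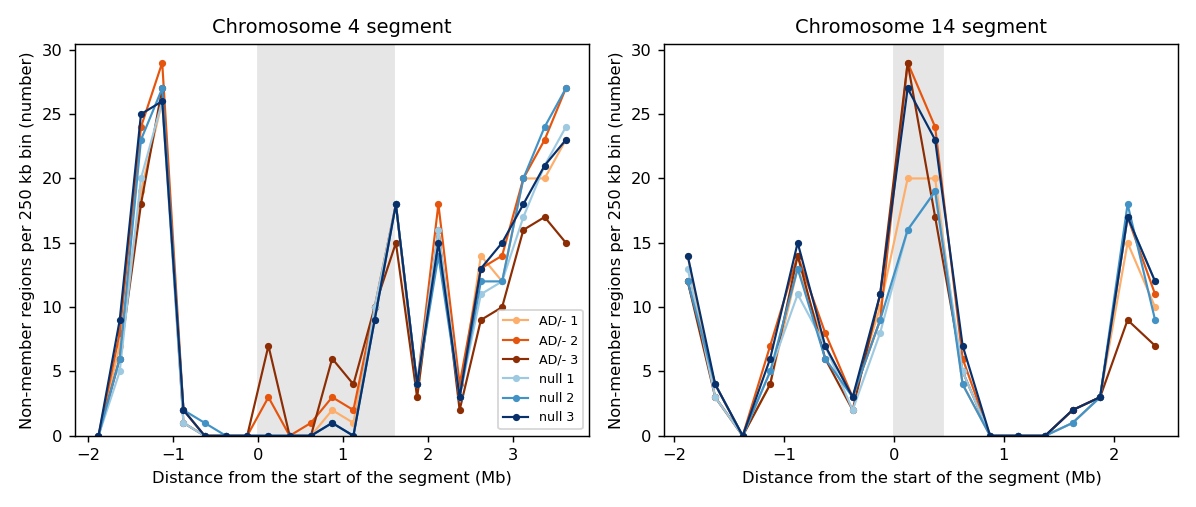
Non-member regions per 250 kb bin (y axis, number) against distance from the start of the chromosome 4 and chromosome 14 segments of the AD/- set (x axis, Mb), 1 line per library, with the segment shaded. In the first 1.06 Mb of the chromosome 4 segment the 3 null libraries hold 1 region each and the AD/- libraries 2, 7 and 13; in some bins outside the segments AD/- library 3 lies below the others.

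The segment held many promoters with copies. Of the RefSeq windows in or within 50 kb of the chromosome 4 segment, 13 of 33 (39.4%) shared an exact run of 50 bases, the read length given in the labels, with a window elsewhere, against 6.70% of 31365 distinct autosomal windows. Between the first and the fifth member it was 9 of 13. In the rest of the segment, where the numbers of regions ran closer, it was 4 of 16, those of Zfp985, Zfp979, Zfp534 and Zfp984. Windows were counted per annotated start, so Gm30681 in the first part and Mfn2 in the rest each gave several overlapping windows. The windows of Rex2, in the first stretch, and Zfp979, in the rest, both printed above, shared 102 bases, and Rex2 and Zfp982 shared 71. This measure was added after the data were seen and reads promoters only. The part of repeated sequence, of strain differences in copy number and of the genotype in the pattern was not tested, and with the strain of each library at this place unknown, strain and genotype cannot be told apart.

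In the other AD/- segments, the numbers of other regions did not put all 3 AD/- libraries above all 3 null libraries. On chromosome 14, from 15861432 to 16303584, 5 members lay in a dense stretch of 83 regions in 0.442 Mb, the last inside Ngly1, which encodes an enzyme that removes sugar chains from misfolded proteins. Other regions numbered 37, 50 and 44 in the AD/- libraries and 33, 33 and 47 in the null libraries, so the groups overlapped. Of these regions, 24 had AD/- libraries only and 11 had null libraries only. Over all regions outside the AD/- members, 10.04% had AD/- libraries only and 10.28% null libraries only. The 24 include 3, 8 and 9 regions private to AD/- libraries 1, 2 and 3. The 11 include 2, 2 and 6 private to null libraries 1, 2 and 3. None of the 5 promoter windows there shared 50 bases.

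On chromosome 17, from 52601906 to 53579987, 3 members lay near Kcnh8, Efhb and Kat2b. The Kcnh8 member, 428 bp from the annotated start of this potassium channel gene, had the highest percentiles of the AD/- members, with 43.2, 47.8 and 33.1. A null summit lay 915 bp from it. Kat2b encodes a histone acetyltransferase, and its member had 21.2, 38.1 and 9.90, with a null summit 633 bp away. Other regions numbered 7, 8 and 6 against 8, 10 and 12, more in the null libraries except for a tie at 8.

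On chromosome 11, 3 members lay inside Sfi1, a gene of centriole structure, from 3162640 to 3182886. Their percentiles ran from 1.92 to 15.7, and other regions numbered 6, 5 and 7 against 3, 6 and 7. The fifth segment was 1 member inside Lasp1, an actin-binding protein gene, with 24.3, 39.2 and 25.4 and a null summit 905 bp away. Over the AD/- segments together, 7 of 16 regions in 2 libraries had both in the set (43.8%, interval 23.1 to 66.8), beside 16.2% elsewhere. Regions of the chromosome 4 and chromosome 14 segments weigh most in this.

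The 11 null members formed 5 segments. On chromosome 16, 1 of 3 lay inside Runx1, which encodes a transcription factor of blood and T cell development, with percentiles of 0.432, 4.40 and 4.24 in null libraries 1, 2 and 3. A summit of an AD/- library lay 1055 bp from it, and of all 11 null members 3 had one within 2 kb. On chromosome 11, 3 lay near Lrrc3c, inside Med24, a Mediator subunit, and near Smarce1, a chromatin remodelling subunit. The first had 24.7, 29.3 and 26.8 and the second 18.8, 28.7 and 26.3. On chromosome 15, 3 lay at Ano6, which encodes a lipid scramblase, and beyond it, and the last of these had 32.6, 37.3 and 36.7. The others were 1 region each near Tln1, which encodes talin, and near Vegfa, a growth factor of blood vessels. In these segments 8 of 20 regions in 2 libraries had both in the set (interval 21.9 to 61.3%), beside 23.9% elsewhere. All 17 regions in 5 libraries held the whole set, beside 81.7% elsewhere, and 3 of 16 in 4 libraries did, beside 28.7% elsewhere.

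Trp53, the altered gene, lies on chromosome 11 from 69580348 to 69591873, and chromosome linked to it is inherited with the genotype. Within 20 Mb there were 132 three-library regions, of which 24 were members (18.2%, beside 16.9% over all autosomes). None was of the AD/- or the null set. These sets had only 3 and 9 three-library regions there, and over all autosomes 18 of 129 and 11 of 304 (3.62%) were members, so counts of 0 say little. The nearest AD/- member was 28.2 Mb away and the nearest null member 29.0 Mb.

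Of the 12 segments with the most members, 11 had mixed sets. The longest, on chromosome 4 from 32251979 to 34859662, had 7 members of AD/- 1, AD/- 2 and null 3 and ran from Bach2, which encodes a repressor in lymphocytes, to Zfp292. AD/- libraries 1, 2 and 3 had 88, 103 and 72 other regions there and the null libraries 99, 96 and 102, so null 1 and null 2, outside the set, had more than AD/- library 1, inside it. A segment of AD/- 2, null 2 and null 3 on chromosome 14 from 25055642 to 27373278 had 7 members, with Zmiz1, a coregulator of Notch1, among its genes, and 12 of 58 promoter windows there shared 50 bases. Other regions numbered 112, 129 and 84 against 114, 128 and 126.

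The same set gave 7 members on chromosome 11 from 119547351 to 121439512, with Cd7, a T cell surface protein gene, and 7 on chromosome 11 from 77525814 to 79222109, with Foxn1, the master regulator of thymic epithelium. It also gave 6 each on chromosome 2 from 164418192 to 166537389, on chromosome 4 from 132804323 to 134592718 with Arid1a, a chromatin remodelling subunit, on chromosome 9 from 57728260 to 59459418 with Pml, and on chromosome 17 from 5928963 to 7153782 with Ezr, which links membrane and actin. In the last, 5 of 30 promoter windows shared 50 bases. The set of AD/- 2, null 1 and null 3 gave 6 on chromosome 5 from 115674313 to 117933325, near Taok3 and Nos1, and 6 from 35956861 to 37028563, near Wfs1 and Ppp2r2c. AD/- 1, AD/- 2 and null 3 gave 5 on chromosome 16 from 30533489 to 32815030, near Pak2. Across these 12 segments no region had the complementary set.

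Some members at gene ends had higher percentiles than most members, and several of these had a summit outside the set close by. The member at Tgfbr3, which encodes a TGF-beta coreceptor, had percentiles of 79.0 in AD/- 2, 76.3 in null 1 and 79.4 in null 3. A summit of another library lay 814 bp away. Itih5 had 67.1 in AD/- 2, 54.9 in null 2 and 65.5 in null 3, with a summit outside the set at 754 bp. Notch3 had 43.8 in AD/- 2, 48.8 in null 1 and 50.1 in null 3, and its 3 summits fell on a single base, 32166917. A summit outside the set lay 768 bp away, and Notch3 was among the marker genes with a region of all 6 libraries at a gene end. In each of these 3 members a library outside the set thus had a summit within 1 kb. Krtcap2, Gart and Tars2 had lowest percentiles of 34.2, 31.0 and 28.8 with outside summits at 881, 1574 and 1038 bp. Clec12b, a C-type lectin gene, had 28.02, 28.7 and 28.4 and no outside summit within 9090 bp. Trim47, shown for its sequence and chosen after its values were seen, had 25.6 in AD/- 1, 26.4 in AD/- 2 and 8.43 in null 3, with summits at 116110300, 116110305 and 116110351 and an outside summit at 524 bp.

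Further down were Ppp2r2c at 27.99, Ankrd45 at 27.1, Masp1 at 24.6, Npc2 at 19.7, Myocos at 16.3, Pml at 15.9 and Hoxb8 and Myom1 at 14.996. Of the 79 members with a lowest percentile of 25 or more, 31 (39.2%) had an outside summit within 2 kb, beside 31.4% of the 722 below.

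Several genes of T cell development had a member within 50 kb or inside them. They were 8 of 40: Bcl11b, Gata3, Notch3, Runx1, Lat, Myb, Foxo1 and Ccr7, beside 6.53% of all protein-coding genes. Runx1 held 3 members of 3 different sets, 1 of them the null set, with lowest percentiles of 5.53, 24.2 and 0.432. Bcl11b, which commits cells to the T lineage, held 2 of AD/- 1, AD/- 2 and null 2, with lowest percentiles of 0.756 and 0.278. The member near Lat, an adaptor of the T cell receptor, had the lowest percentile of all members, 0.0103. Of the other lists described here, 1 of 9 myeloid genes (Irf8), 2 of 9 thymic epithelial genes (Foxn1 and Epcam), 0 of 4 erythroid genes and 0 of 7 of endothelium and mesenchyme had one.

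Of 3228 genes with the listed name prefixes, 110 (3.41%) overlapped a segment, beside 11.9% of all 20661 protein-coding genes. The prefix Gm, which marks predicted genes and is no family, supplied 61 of the 110, and without it 49 of 2263 (2.17%) overlapped one. The Zfp family had 32 of 391 (8.18%), and 12 of the 31 genes in AD/- segments were Zfp genes. Olfr, the odorant receptors, had 11 of 1104, and the Vmn2r, Klra and H2- families had 0. Ceacam with 2 of 15 and Fcgr with 1 of 5 lay above the share of all genes. Promoter windows in or within 50 kb of a segment shared 50 bases in 3.04% of 4046 cases, beside 7.24% of 27319 elsewhere. A segment needs several three-library regions close together, so stretches with few summits can hardly hold one. The genes and windows used for comparison include such stretches, and the shares were not adjusted for this. Members lay within 50 kb of such a window in 4.65% of cases, beside 4.01% of other three-library regions and 4.16% of six-library regions.

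Of 13 genes known to differ between BALB/c and C57BL/6 or related strains, 12 lay outside the segments and 1 inside, beside 11.9% of all protein-coding genes inside. Cd5l, which encodes a secreted macrophage protein, lay in a segment of AD/- 2, null 2 and null 3, 5326 bp from a member. Tyr, the pigment enzyme whose mutation makes BALB/c white, was 5545363 bp from the nearest member. The gene H2-K1 of the major histocompatibility complex was 456696 bp away.

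No difference between genotypes beyond the spread between libraries was found in what the segments held besides members. Summits of non-member regions in segments made up 16.5%, 16.3% and 16.6% of AD/- libraries 1, 2 and 3 and 16.4%, 16.8% and 16.3% of null libraries 1, 2 and 3. The means were 16.5 ± 0.168 and 16.5 ± 0.230 (SD, n = 3 each), and the difference of -0.046 percentage points was within the spread (exact permutation p = 0.9, two-sided, adjusted p = 0.9 over 3 measures). The median percentile of the 6246 six-library regions in segments was 63.8, 67.0 and 55.7 against 63.5, 65.1 and 66.0, and AD/- library 3 was the lowest. The difference of -2.69 had an exact permutation p of 0.7 (adjusted 0.9). The share of non-member summits within 1 kb of a gene end was 19.6%, 18.6% and 22.5% against 20.1%, 19.3% and 18.9%, a difference of 0.83 points (exact permutation p = 0.7, adjusted 0.9). The smallest p that 20 relabellings allow is 0.1, so none of these could have passed 0.05.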

How the data were processed

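The authors deposited 1 list of MACS2 summits per library, each with a score that was read as −log10 of the q-value: the lowest deposited score is 1.30, which is a q-value of 0.05. Per the submitters' processing notes the build was GRCm38 and the tools were MACS2 2.1.2, Picard 2.9.0, Bowtie2 2.3.4.2 and Trim Galore 0.4.5. Masking and multi-mapping settings are not given in the sources used here.

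Regions, members and segments were computed with Python 3.11.15, pandas 2.3.3 and SciPy 1.17.1. The procedure was tested on simulated data. Gene names and ends come from a RefSeq table on GRCm38 without strand, and promoters from RefSeq windows, which held none for chromosome 18. Shares carry 95% Wilson intervals. Genotypes were compared with the exact permutation test over 6 libraries, with Benjamini-Hochberg adjustment. Replicate numbers follow the order of deposition.

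The members and lists were chosen with earlier results of these data known. Named were Trp53, the 12 segments with most members, the members of the AD/- and null sets, up to 15 members at a gene end, those near marker genes, and those nearest the 1 Mb limit. Some of those are not reported here. Alternatives were extensions of 100 and 500 bp, scores of at least 5, lists of equal length, each library left out, distances of 500 kb and 2 Mb, at least 1 or 3 others, regions with an outside summit within 2 kb left out, and regions within 10 kb counted once.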

Additional observations from a re-analysis of the deposited data

How the results depend on the processing

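The library left out moved most values, since 3 of 5 libraries is another rule than 3 of 6: over the 6 such settings, members numbered 1276 to 2627, segments 396 to 601 and the member share was 25.5% to 45.5%. AD/- members numbered 23 to 45 and null members 31 to 680 (the genotype whose library was left out has no set of 3, so no value). The ratio of identical pairs within 1 Mb to those on different chromosomes, 1.10 under the main settings, was 1.02 to 1.06. The AD/- local ratio of 2.91 was 1.56 to 1.75 and the null one of 0.68 was 0.81 to 0.97. With lists of equal length there were 89 members, 36 segments, a share of 3.24%, 4 AD/- members, local ratios of 0.91 (AD/-) and 1.201 (null), and -2.29 percentage points for 2-library regions in the set, against 1.54 with the lists as deposited. With a score of at least 5 the share was 18.1%, AD/- members 0, null members 21 and the AD/- ratio 1.42. An extension of 100 bp gave 6 AD/- members, an AD/- ratio of 1.48 and a pair ratio of 1.04. An extension of 500 bp gave a share of 15.3% and an AD/- ratio of 4.98.

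Distances of 500 kb and 2 Mb gave 385 and 1425 members, 136 and 394 segments, shares of 8.13% and 30.1% and null members of 5 and 43, with 11 AD/- members at 500 kb. At least 1 and at least 3 others gave 2029 and 315 members, 806 and 87 segments, shares of 42.9% and 6.65%, AD/- members of 38 and 11 and null members of 79 and 0. Leaving out regions with an outside summit within 2 kb gave 331 members, 111 segments, 10.6%, 9 AD/- members, 1 null member and an AD/- ratio of 6.997. Without the AD/- members of the 1, 2 and 5 largest segments, chosen after seeing the data like the ratios, the AD/- ratio was 2.29, 1.59 and 0.98. The cause of these moves was not tested.

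The genotype differences changed sign: for non-member summits to 0.16 points with a score of at least 5, to 0.037 with equal lists and to values from -0.067 to 0.75 with a library left out. For gene ends the sign changed to -0.089 with equal lists, and leaving out a library gave -0.27 to 1.60. For the median percentile it gave -5.33 to 0.77, the positive value without AD/- library 3. No paired analysis was possible because the replicate numbers come from the order of deposition and pair nothing.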

Other observations

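On the X chromosome, which the rule leaves out, the same rule found 3 members in 1 segment among 98 three-library regions (3.06%), none of them of the AD/- or the null set.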
